A study of Homo sapiens with 6 samples.

Results

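The genes examined here encode the machinery that lets replication continue past damaged DNA: the translesion polymerases *POLH*, *POLI*, *POLK*, *REV1* and *REV3L*, the polymerase zeta subunit *MAD2L2*, the ubiquitin ligase *RAD18*, the PCNA-binding factor *PCLAF* and the primase-polymerase *PRIMPOL*. They were taken by Ensembl identifier from the gene count table, where all 9 were found among 58336 genes. RNA was sequenced from A2780, an established ovarian cancer cell line grown in culture, after vehicle (DMSO) or 6 µM TH588 for 48 h, with biological triplicates (libraries A, B and C) in each group. TH588 is a first-generation mitotic MTH1 inhibitor. MTH1 is a hydrolase that removes oxidised nucleotides before they can be built into DNA. The sample titles state the 48 h for TH588 only and give no time for DMSO. The labels name no other difference between the groups, and a single cell line limits the comparison to that line.

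When a replicative polymerase stalls at a lesion, RAD18 and its RAD6-type partner attach ubiquitin to PCNA, the sliding clamp, and the modified clamp recruits polymerases with wide active sites. The Y-family members insert a base opposite the lesion. Polymerase zeta, whose catalytic subunit is REV3L and which needs MAD2L2 (REV7), often extends from it, with REV1 as the scaffold. PrimPol instead starts a new strand beyond the lesion and leaves a gap to be filled later. PCLAF occupies PCNA during normal replication and must leave for polymerase exchange. *POLH* is also known as a gene that p53 can activate.

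Total counts were 28537837 in TH588 replicate A and 77634048 to 99074175 in the other 5 libraries. The share of *SNORD3A*, a small nucleolar RNA, was 7.68%, 10.59% and 9.88% in the DMSO libraries A, B and C. In the TH588 libraries it was 21.94%, 11.2% and 12.95%, so every TH588 library lay above every DMSO library. With its low total, TH588 replicate A gives less precise values, and results of the examined genes that rest on it are also given without it. Of 13 epithelial and ovarian carcinoma markers, only *KRT18* reached 1 CPM in every library, where CPM is the read count scaled to a common library size with edgeR's TMM factors. *PAX8*, *WT1*, *CDH1* and *KRT7* stayed at 0.0848 CPM or less, and *SOX17* had 0 counts, which allows up to 0.112 CPM in the shallowest library. *EPCAM*, by contrast, had 0.497 to 0.886 CPM with DMSO and 4.33 to 4.96 CPM with TH588 (log2 fold change 2.875). *KRT18* and *FOLR1* were also higher, at log2 fold changes of 0.884 and 1.593, with *FOLR1* at 0.411 CPM or less. The summed epithelial list took 3.93 to 4.78 CPM with DMSO and 11.4 to 12.6 CPM with TH588. The 5 fibroblast markers (*COL1A1*, *COL1A2*, *DCN*, *LUM* and *PDGFRB*) all exceeded 1 CPM, at 16.3 to 18.1 and 19.2 to 21.9 CPM in sum. Leukocyte and endothelial lists summed to at most 0.822 and 0.132 CPM. The part of these markers in the results was not tested. In bulk RNA, fewer cells with a transcript and less transcript per cell cannot be told apart.

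All 9 genes passed the low-count filter. After TH588, *POLH* rose while *RAD18*, *PRIMPOL* and *REV1* fell. The other 5 genes did not pass the test. The changes ran from 1.67-fold higher for *POLH* to 0.411 of the DMSO level for *RAD18*. The count of 4 changed genes among 9 (44.4%) is close to that of the transcriptome, since 49.6% of the 15844 genes tested changed (24.2% higher and 25.3% lower) at an adjusted p under 0.05 in edgeR's quasi-likelihood test. That share is near the background and is no result about the set, so the values below are those of single genes. The median log2 fold change was -0.24 over the 9 genes and 0.019 over all genes tested. The median of the 9 was -0.10 without TH588 replicate C, -0.14 without DMSO replicate A or with library size as the only scaling, and -0.37 with a gene length trend removed. It was -0.07 when 10 counts were required in each library, which removed *PCLAF*. The groups did not overlap for 6 of the 9, against 57.7% of all genes. Among these, 2 were higher (*POLH* and *POLI*, background 28.7%) and 4 were lower (*REV1*, *RAD18*, *PRIMPOL* and *PCLAF*, background 29%).

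**Figure D1:**
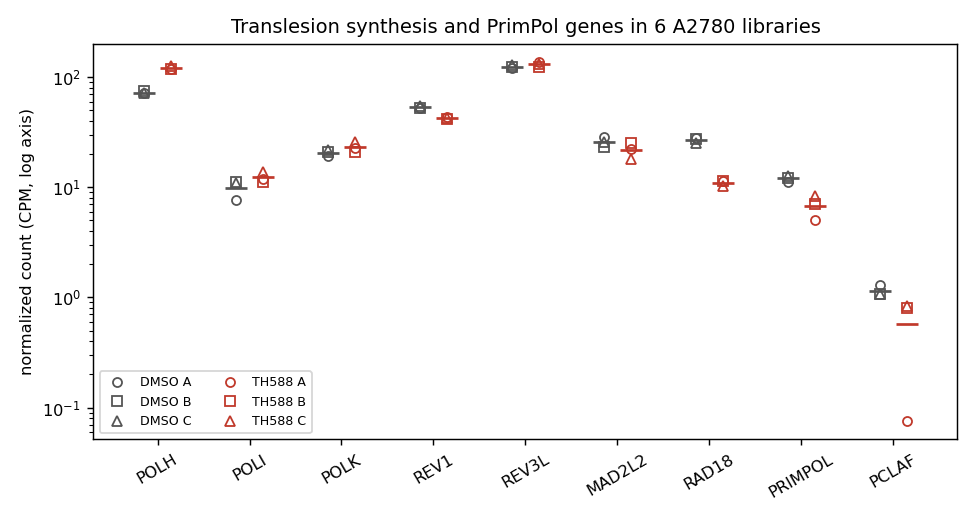
Normalized counts (CPM, log axis) of the 9 genes in each library, with DMSO in grey and TH588 in red, a symbol per replicate letter and a bar at each group mean. *POLH* sits higher in every TH588 library and *RAD18*, *PRIMPOL* and *REV1* sit lower. *PCLAF* has the lowest counts, at 0.0747 CPM in TH588 replicate A, and may lack reads in exons shared with another gene.

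*POLH* (ENSG00000170734) encodes polymerase eta, which copies accurately past ultraviolet-induced pyrimidine dimers and is the enzyme missing in the variant form of xeroderma pigmentosum. The gene lies on chromosome 6 of GRCh38 from 43576150 to 43615660. Its normalized counts were 71.2, 74.0 and 71.8 CPM in the DMSO libraries A, B and C, and 117.6, 119.3 and 125.2 CPM in those treated with TH588. Every treated library thus lay well above every control library. The log2 fold change was 0.74 (standard error, SE, 0.07, edgeR adjusted p = 6.06e-06), a 1.67-fold rise with a 95% interval of 1.49 to 1.87. It placed *POLH* at the 82.8th percentile of all log2 fold changes, and it stayed between 0.61 and 0.84 in all 17 alternative analyses.

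Another gene starts almost back to back with *POLH*. The first exon of *XPO5*, which encodes the exporter of microRNA precursors, begins 75 bases away on the opposite strand. The 74 bases between their starts, which lie in no annotated exon, are shown because the genes on either side of this stretch moved in opposite directions. They are given 5′ to 3′ on the strand of *POLH*, from the GRCh38 genome at chr6:43576076-43576149, with GC boxes (GGGCGG on either strand, which may overlap) in capitals.
POLH–XPO5 gap: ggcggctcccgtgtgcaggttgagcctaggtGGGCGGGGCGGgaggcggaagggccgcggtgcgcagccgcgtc
The stretch was 78.4% G and C. *XPO5* fell from 186.4, 177.2 and 184.1 CPM to 121.2, 128.5 and 118.8 CPM, a log2 fold change of -0.57 (SE 0.08, edgeR adjusted p = 5.19e-05). Within each library, *POLH* reads per kilobase were 0.919 to 1.005 of those of *XPO5* with DMSO and 2.24 to 2.54 times those of *XPO5* with TH588. That ratio does not depend on the scaling between libraries. It averaged 0.955 ± 0.0451 with DMSO and 2.37 ± 0.153 with TH588, with no overlap (SD, n = 3 each, exact two-sided permutation p = 0.1, the smallest that 3 against 3 libraries can give).

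The remaining Y-family members followed no common direction. *REV1* (ENSG00000135945, chromosome 2, 99400475 to 99490035) encodes a deoxycytidyl transferase that mainly serves as the platform on which the other translesion polymerases meet. It had 52.1, 52.9 and 54.4 CPM with DMSO and 43.5, 41.6 and 42.6 CPM with TH588. The groups were tight and separate, and the fall was small, at -0.32 on the log2 scale (SE 0.07, edgeR adjusted p = 0.00342), or 0.801 of the control level with a 95% interval of 0.716 to 0.896. With library size as the only scaling, the median of all genes moved from 0.019 to 0.126, *REV1* stood at -0.22, and its adjusted p was 0.0822 in edgeR's test. Exons of *EIF5B* on the opposite strand cover 11% of the exon bases of *REV1*, and *EIF5B* fell from 302.4 ± 4.71 to 180.9 ± 16.2 CPM (SD, n = 3 each). How reads in shared exons were counted, and with what strand setting, is not given in the sources used here. Without strand, reads of the pair cannot be told apart, and the part of *EIF5B* in the *REV1* value was not tested.

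*POLI* (ENSG00000101751, chromosome 18, 54269404 to 54321266) encodes polymerase iota, the least accurate of the family. Its counts were 7.58, 11.2 and 10.9 CPM with DMSO and 11.9, 11.2 and 13.9 CPM with TH588. The highest control and the lowest treated library were nearly equal, and the log2 fold change of 0.32 (95% interval -0.02 to 0.65, edgeR adjusted p = 0.108) did not pass. Without DMSO replicate A, the lowest library, it was 0.18.

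*POLK* (ENSG00000122008, chromosome 5, 75511756 to 75601144) encodes polymerase kappa, which bypasses bulky adducts on guanine. It had 19.3, 20.9 and 21.6 CPM with DMSO and 22.9, 20.7 and 25.9 CPM with TH588. The groups overlapped, and the log2 fold change was 0.17 (95% interval -0.06 to 0.40, edgeR adjusted p = 0.201). Without TH588 replicate C it was 0.10. Its head-to-head neighbour *CERT1*, a ceramide transporter that begins 382 bases away, had a log2 fold change of 0.14 that also did not pass (edgeR adjusted p = 0.17).

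Taken per kilobase of exon, *POLH* made up most of the Y-family reads in every library, and its share was higher in each TH588 library than in any DMSO library. It accounted for 67.6%, 67.0% and 65.9% of the reads per kilobase of the 4 genes in the DMSO libraries and for 78.0%, 79.3% and 78.3% in the TH588 libraries. The share of *REV1* was 22.4% ± 0.474 with DMSO and 12.6% ± 0.505 with TH588, and that of *POLK* was 7.40% ± 0.281 and 5.85% ± 0.482 (SD, n = 3 each). *POLI* held 3.41% ± 0.619 and 2.99% ± 0.230 (SD, n = 3 each), with overlapping groups. The exact two-sided permutation p was 0.1 for *POLH*, *REV1* and *POLK* and 0.4 for *POLI*. The lengths are those in the table. For *POLH* and *POLK*, the rows hold 41.9% and 39.5% of the bases of the transcript that GENCODE marks as canonical. The other 7 genes have 99.7% or more. Rows also hold bases outside that transcript: *REV1* has 7769 exon bases against 4731 canonical ones, and *POLI* 9471 against 6020. The *POLK* row has 9105, of which 5776 are canonical. Shares and levels per kilobase therefore depend on these lengths.

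**Figure D2:**
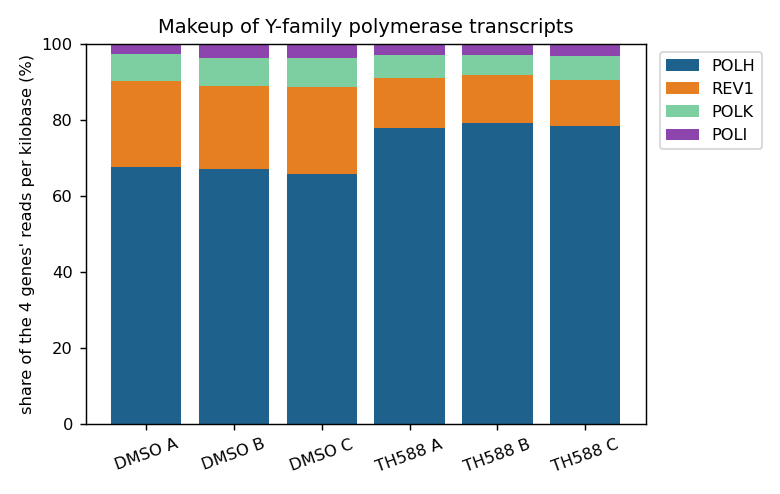
Share (%) of each Y-family polymerase in the reads per kilobase of exon of the 4 genes, as a stacked bar per library. *POLH* takes 65.9% to 67.6% with DMSO and 78.0% to 79.3% with TH588, while *REV1* averages 22.4% and 12.6%.

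Of the polymerase zeta genes, neither *REV3L* nor *MAD2L2* showed a change that passed the test. *REV3L* (ENSG00000009413, chromosome 6, 111299028 to 111483715), the very large catalytic subunit, had 120.9, 123.2 and 128.8 CPM with DMSO and 137.2, 123.4 and 131.0 CPM with TH588. These values overlapped, and the log2 fold change of 0.07 had a narrow 95% interval of -0.10 to 0.24 (edgeR adjusted p = 0.482). It lay between 0.02 and 0.17 in all 17 alternatives, and was 0.04 without TH588 replicate A, 0.11 without TH588 replicate B and 0.11 without DMSO replicate C. *TRAF3IP2-AS1*, a noncoding gene that begins 204 bases from *REV3L* on the other strand, had a log2 fold change of 0.65 that did not pass (edgeR adjusted p = 0.115). *MAD2L2* (ENSG00000116670, chromosome 1, 11674480 to 11691650) is a HORMA-domain protein that joins REV3L to REV1 and also works in the shieldin complex at broken ends. It had 28.5, 23.1 and 25.6 CPM with DMSO and 22.3, 25.1 and 17.9 CPM with TH588. Its replicates spread widely in both groups, and the log2 fold change was -0.24 (95% interval -0.52 to 0.04, edgeR adjusted p = 0.137). It was -0.37 without TH588 replicate B, where it passed (edgeR adjusted p = 0.0309), -0.10 without TH588 replicate C and -0.14 without DMSO replicate A. It also passed when a trend with gene length was removed, at -0.38 (edgeR adjusted p = 0.0232). Over all 17 alternatives its adjusted p ran from 0.0199 to 0.552. The ratio of *MAD2L2* to *REV3L* reads per kilobase was 0.774 ± 0.0939 with DMSO and 0.625 ± 0.125 with TH588 (SD, n = 3 each, exact two-sided permutation p = 0.3). The genes that start head to head with *MAD2L2* (*DRAXIN*) and *POLI* (ENSG00000277324) had at most 9 and 5 reads in any library, and *REV1* and *RAD18* have no such neighbour within 1000 bases.

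*RAD18* (ENSG00000070950, chromosome 3, 8775402 to 8963773) showed the largest fall of the set. The ligase it encodes places the single ubiquitin on PCNA that opens the translesion pathway. It had 27.9, 27.3 and 25.01 CPM with DMSO and 11.5, 11.3 and 10.2 CPM with TH588. Each treated library held less than any control library by more than the spread within either group. The log2 fold change was -1.28 (SE 0.10, edgeR adjusted p = 8.96e-07), which is 0.411 of the control level with a 95% interval of 0.353 to 0.478. It lay at the 2.6th percentile of all log2 fold changes and between -1.34 and -1.18 in all 17 alternatives. No exon of another gene in the table overlaps *RAD18*, so reads shared with a neighbour do not enter this value.

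*PRIMPOL* (ENSG00000164306, chromosome 4, 184649613 to 184694963) fell as well. It had 11.2, 12.2 and 12.7 CPM with DMSO and 5.01, 7.08 and 8.26 CPM with TH588, so that replicate A, the shallowest library, was also the lowest. The log2 fold change was -0.81 (SE 0.16, edgeR adjusted p = 0.00109), or 0.572 of the control level with a 95% interval of 0.451 to 0.727. Without TH588 replicate A it was -0.64 and still passed (edgeR adjusted p = 0.00107). Exons of *CENPU*, a centromere gene on the other strand, overlap 12.2% of its exon bases. *CENPU* fell from 44.6 ± 2.19 to 21.4 ± 1.57 CPM (SD, n = 3 each), and its part in the *PRIMPOL* value was not tested.

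**Figure D3:**
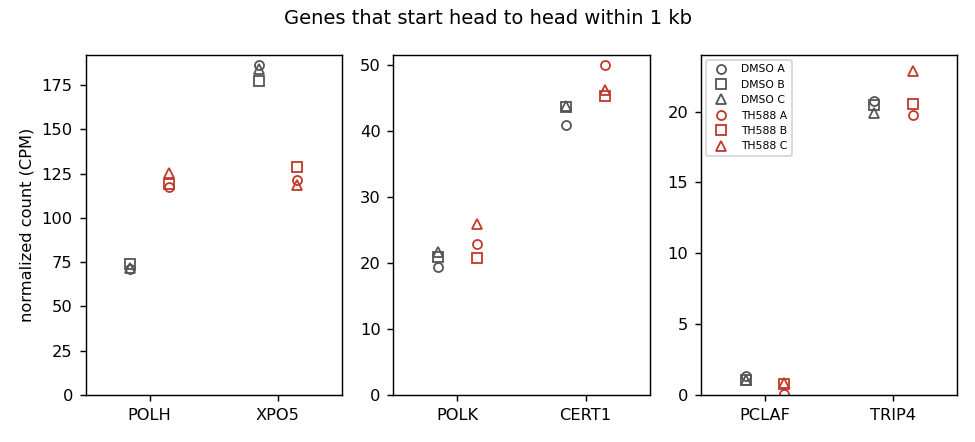
Normalized counts (CPM, linear axes from 0) of 3 of the 9 genes and the gene that starts head to head with each, with DMSO in grey, TH588 in red and a symbol per replicate letter. *POLH* rises as *XPO5* falls, and neither gene of the *POLK*–*CERT1* or *PCLAF*–*TRIP4* pair passed the test.

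*PCLAF* (ENSG00000166803, chromosome 15, 64364311 to 64387687) had the lowest counts of the set. It received 107, 88 and 100 reads in the DMSO libraries and 2, 87 and 70 reads in the TH588 libraries A, B and C, or 1.30, 1.07 and 1.07 CPM against 0.0747, 0.800 and 0.839 CPM. The log2 fold change of -0.84 had a wide 95% interval of -1.79 to 0.11 (edgeR adjusted p = 0.131), and it was -0.47 without TH588 replicate A (edgeR adjusted p = 0.157). The 2 reads in that library are fewer than the 3 that a count of 0 allows. All 333 coding bases of the canonical transcript, and part of each of its 4 exons, also belong to ENSG00000259316, a readthrough gene on the same strand, which itself held at most 13 reads in any library. If reads in shared exons were assigned to neither gene, the value reflects only the bases that belong to *PCLAF* alone, and whether this was done is not given in the sources used here. Its head-to-head neighbour *TRIP4*, a transcriptional coactivator gene 61 bases away, stood at 20.4 ± 0.405 and 21.1 ± 1.61 CPM (SD, n = 3 each, edgeR adjusted p = 0.687).

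**Figure D4:**
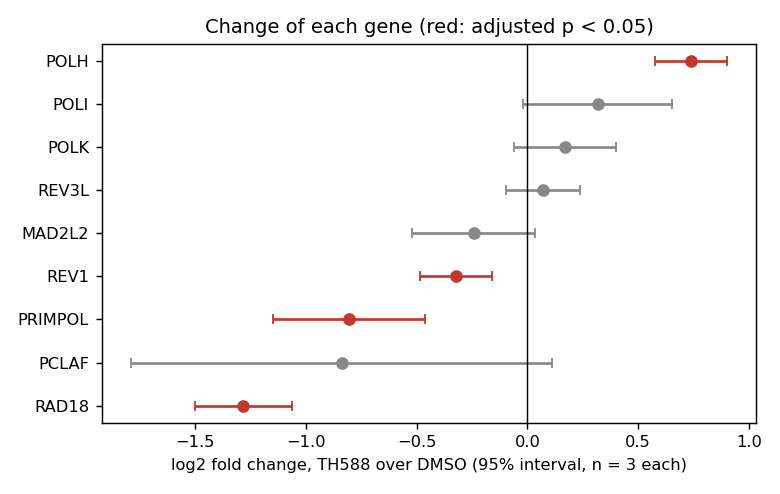
Log2 fold change (TH588 over DMSO) of each gene with its 95% interval from edgeR's fit, ordered by size, with genes at an adjusted p under 0.05 in red. *POLH* is the sole rise that passed; *RAD18*, *PRIMPOL* and *REV1* are the falls that passed, and the interval of *PCLAF* is the widest.

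Levels were compared between genes as CPM per kilobase of exon. The length was that of all exon bases of a gene, including bases outside the canonical transcript. It was 3324 bases for *MAD2L2* and 7769 for *REV1*, whose canonical transcripts have 1053 and 4731. The order between genes therefore depends on the length used. With DMSO the order was *POLH* (20.4), *REV3L* (10.0), *MAD2L2* (7.73), *REV1* (6.84), *PRIMPOL* (4.23), *RAD18* (3.83), *POLK* (2.26), *POLI* (1.05) and *PCLAF* (0.307). The libraries of *MAD2L2* and *REV1* overlapped, as did those of *PRIMPOL* and *RAD18*, so the order within these pairs is not resolved. The place of *PCLAF* is also uncertain, since its counts may lack reads in exons shared with ENSG00000259316. With TH588 *POLH* stood at 34.1, *REV3L* at 10.5, *MAD2L2* at 6.54 and *REV1* at 5.48. *RAD18* (1.58) dropped below *POLK* (2.55) and overlapped *POLI* (1.30), and *PRIMPOL* (2.39) overlapped *POLK*.

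RefSeq promoter windows (GRCh38.p14, 250 bases before to 50 after a start) were available for all 9 genes, 12 windows in all, and were searched on both strands. GC boxes were found in 11 of the 12 windows and 8 of the 9 genes, against 45.0% of all 35116 windows. *POLI* had none. The E2F element TTCCCGC occurred in a window of *POLI*, *REV3L*, *MAD2L2* and *PCLAF*, 4 genes of which none passed the test, against 6.55% of all windows. *PCLAF* and *MAD2L2* had a CCAAT box (34.6% of all windows). *PRIMPOL* alone had TTTGAA, the core of the cell cycle homology region (15.2%). The p53 consensus pair matched in none of the 12 and in 0.0285% of all windows, which concerns these windows only. These matches are descriptions of the sequence.

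The genes that act on PCNA alongside RAD18 mostly fell. Of 16 genes that attach, edit or remove ubiquitin on PCNA, PCNA itself included, 12 were lower and 1 was higher, with a median log2 fold change of -0.41, against 25.3% of all genes lower. The number lower was 8 without DMSO replicate C. *DTL*, the substrate receptor of a further PCNA ligase, went from 119.8 ± 7.96 to 47.0 ± 6.37 CPM (SD, n = 3 each, log2 fold change -1.34). *ATAD5*, which unloads PCNA and brings in its deubiquitinase, went from 37.9 ± 0.811 to 14 ± 3.36 CPM (-1.42). That deubiquitinase, *USP1*, had a log2 fold change of -1.30, whereas *WDR48*, its activating partner, was the gene of this list that rose, from 36.6 ± 3.25 to 55.8 ± 7.13 CPM (0.60). *PCNA* had a log2 fold change of -0.76. The RAD18 partners *UBE2A* and *UBE2B* did not pass, at -0.08 (95% interval -0.33 to 0.16) and 0.10 (-0.22 to 0.41). Values of these 2 close paralogues are uncertain where reads match both.

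Among 9 cofactors of the translesion polymerases, 6 were lower and 2 higher, beside 25.3% and 24.2% of all genes (median -0.74). That median was -0.59 without TH588 replicate A. *POLD3*, a subunit that polymerase zeta shares with polymerase delta, fell the most, from 35.1 ± 0.862 to 12.7 ± 0.430 CPM (SD, n = 3 each, log2 fold change -1.47), and *NBN*, which helps bring RAD18 to damage, fell by 0.93 on the log2 scale. The shared subunit *POLD2* had a log2 fold change of -0.74, so subunits of polymerase zeta other than *REV3L* and *MAD2L2* did change. *POLD4* was higher at very low levels, from 0.338 ± 0.165 to 1.32 ± 0.267 CPM. *FAAP20*, a REV1-binding protein, was called higher although its groups overlapped (0.55, edgeR adjusted p = 0.0336), and the number called higher was 1 without DMSO replicate B or C or TH588 replicate B or C. *SPRTN*, a protease for protein-DNA crosslinks that binds modified PCNA, had a log2 fold change of 0.07 (95% interval -0.14 to 0.28).

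Partners through which MAD2L2 acts outside translesion synthesis were measured in 8 genes, of which 3 were lower and 0 were higher, beside 25.3% and 24.2% of all genes. *TRIP13*, the ATPase that remodels MAD2L2, had a log2 fold change of -1.13, *RIF1* one of -0.81 and the shieldin subunit *SHLD2* one of -0.51. The list's median of -0.05 was 0.07 when library size alone was used for scaling. *SHLD1* and *SHLD3*, which did not pass, had low counts, at 0.319 and 1.23 CPM with DMSO.

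The replicative primases fell with *PRIMPOL*. Of 8 genes for the primase-polymerase alpha complex and single-strand binding proteins, 7 were lower and 0 were higher (median -0.86), with 25.3% and 24.2% of all genes as the background. *PRIM1*, the catalytic primase subunit, went from 78.9 ± 0.576 to 24.9 ± 0.242 CPM (SD, n = 3 each, log2 fold change -1.66), a larger log2 fold change than the -0.81 of *PRIMPOL*, with 95% intervals of -1.83 to -1.50 and -1.15 to -0.46. *POLA2* had a log2 fold change of -1.20, and *RPA1*, which recruits PrimPol as part of RPA, one of -0.55. *RPA3* missed the threshold (-0.25, edgeR adjusted p = 0.0582).

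Of the fork reversal factors, which offer an alternative to bypass, 5 of 8 were lower and 1 was higher (median -0.30), where the transcriptome had 25.3% lower and 24.2% higher. *PARP1* fell from 1147 ± 63.0 to 574 ± 58.3 CPM (SD, n = 3 each, -0.999) and *RADX*, which binds single-stranded DNA at forks, fell by 0.76 on the log2 scale. The translocase *SMARCAL1* rose by 0.34. The number lower was 3 without DMSO replicate C, and the number higher was 2 without TH588 replicate B. *HLTF* (-0.31) is counted here and with the PCNA genes. The polymerases outside the Y family that can fill gaps parted: *POLQ*, which joins ends by microhomology, had a log2 fold change of -1.92, while *POLL* (1.08) and *POLB* (0.37), which fill short gaps in repair, rose. Of the 5 tested, 2 were higher and 1 was lower, beside 24.2% and 25.3% of all genes. Without TH588 replicate C the number higher was 1. *POLM* and *POLN* did not pass, and *DNTT* had at most 1 read in any library and was not tested.

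Set beside the cell's wider changes, *RAD18* moved by about as much as replication genes, and *POLH* by less than most p53-activated genes. All 14 replication fork genes were lower, beside 25.3% of all genes, at a median of -1.33 on the log2 scale. *GINS2* (-1.87) and *CDC45* (-1.76) fell the most. *RAD18*, at -1.28, lay near that median, *PRIMPOL* (-0.81) and *REV1* (-0.32) were above it, and *TYMS* (-0.70) had the smallest fall of the list. All 15 p53-activated genes were higher, beside 24.2% of all genes, with a median of 2.08, led by *CDKN1A* (4.71). The 0.74 of *POLH* was below the lowest of them, *AEN* at 0.84, though the 95% intervals of both overlapped (0.58 to 0.90 and 0.65 to 1.03). These lists were chosen with earlier results of these data known and are not independent evidence of a direction.

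**Figure D5:**
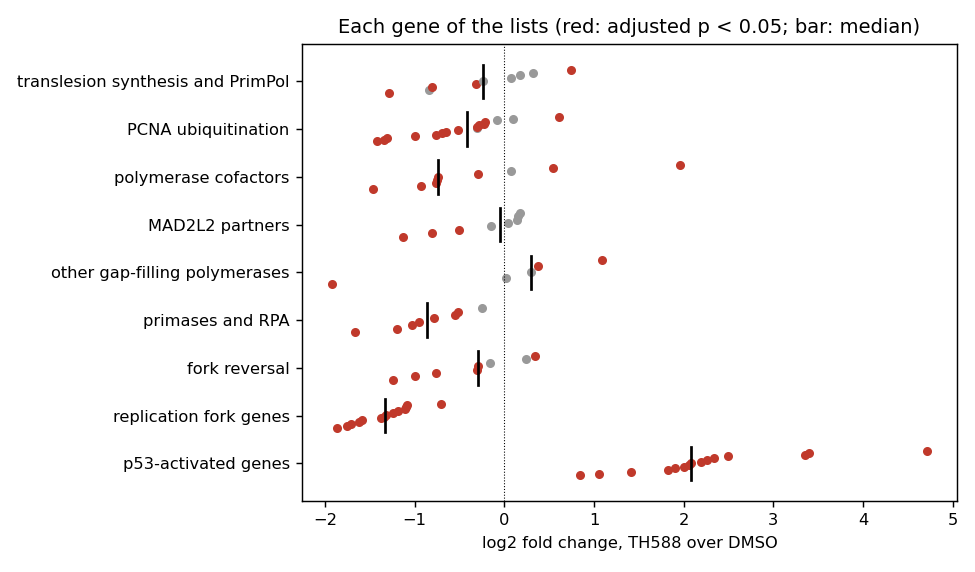
Log2 fold change (TH588 over DMSO) of each tested gene in 9 lists, with genes at an adjusted p under 0.05 in red and a bar at each list's median. The translesion synthesis and PrimPol genes spread on both sides of 0 (median -0.24), between the replication fork genes (-1.33) and the p53-activated genes (2.08).

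The genes with the most similar course over the 6 libraries were sought among 9761 others (mean log2 CPM 2 or more) by the root mean square distance of log2 CPM centred on each gene's mean. Closest to *POLH* were *RNFT1* (distance 0.029), *CNOT8* (0.033) and *EXOC4* (0.035), with log2 fold changes of 0.70, 0.76 and 0.72. Closest to *RAD18* were *CA12* (0.044), *CDCA8* (0.053) and *TUBGCP3* (0.054), with log2 fold changes of -1.34, -1.22 and -1.30. With 2 groups of 3 libraries, many genes share such a course.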

How the data were processed

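The authors aligned reads from TruSeq v2 libraries to GRCh38 with TopHat, counted them per gene with featureCounts 1.4.6 and deposited raw counts; their own comparison used DESeq2. Of 58336 Ensembl genes, 57754 were matched to a symbol. Counts were compared between 3 DMSO and 3 TH588 libraries with edgeR 4.0.16 in R 4.3.3 (TMM, default low-count filter, quasi-likelihood test, Benjamini-Hochberg adjustment over 15844 genes, threshold 0.05). CPM are scaled to the TMM library size, and standard errors are the log2 fold change over the square root of F. Intervals are 95% and cover the spread between libraries. Floors of 3 counts cover counting error only.

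The members, lists and tests were chosen with earlier results of these data known. Named genes are the 9 members, their head-to-head neighbours within 1000 bases, the 3 genes most like the largest rise and fall, and, per list, the 2 largest rises and falls that passed the threshold, had no overlap between groups and averaged 2 or more in log2 CPM. Other list genes were named after their values were seen. Alternatives changed the scaling (size factors of DESeq2, or library size alone), the tool (limma-voom 3.58.1, DESeq2 1.42.0), the low-count filter (none, or 10 counts required in each library), the most abundant genes (10 taken out), the length bias (its trend subtracted), the design (replicate letter as a block, alone and with that subtraction), the threshold (0.01) and the libraries (each left out). The procedure was tested on simulated data in which few genes changed, balanced between rises and falls. That test does not cover changes as broad as those seen here. Replicates differed by more than sampling noise (chi-square per degree of freedom 24.7 to 175.2). This sum over genes gives abundant RNAs much weight. Its highest value was for TH588 replicates A and B, where *SNORD3A* held 21.94% and 11.2% of counts. GRCh38 coordinates are those of the count table, and exon overlaps use that table and GENCODE v44. Values of some genes that this rule names are not reported here.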

Additional observations from a re-analysis of the deposited data

How the results depend on the processing

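The calls of *POLH*, *RAD18* and *PRIMPOL* held under all 17 alternatives, and no member changed sign. *REV1* lost its call with library size only (-0.218, adjusted p = 0.0822 in edgeR's test), where rises made up 60.4% of all calls and not the 48.9% under TMM. *MAD2L2*, *PCLAF* and *POLI* passed under 3, 2 and 1 alternatives. With each library left out in turn, 1 member was higher and 3 to 4 were lower, the latter without TH588 replicate B. The members numbered 2 higher with no filter, and 5 lower under the replicate block once the length trend was subtracted. The cause was not tested. No sign of pairing by letter was seen: same-letter deviations correlated at -0.07, -0.08 and 0, and 0 of 6 libraries correlated best with their own letter. With so few libraries in each group, this check cannot show that pairing was absent. With the replicate block alone, 7195 genes were called, against 7852, and 1 member was higher and 3 were lower, as without it.

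Fork reversal genes numbered 3 lower with library size only, and 3 to 5 lower and 1 to 2 higher with a library left out. Polymerase cofactors numbered 1 higher at an adjusted p under 0.01 and 1 to 2 with a library left out. The other gap-filling polymerases numbered 1 higher with the length trend removed, with or without the block, and at an adjusted p under 0.01, and 1 to 2 with a library left out. The gain in the *POLH* share of Y-family reads was 11.2 to 12.1 percentage points with a library left out, and 14.3 when raw counts were not divided by length. At the depth of TH588 replicate A, 3 counts are 0.112 CPM, against 0.0276 to 0.0365 CPM elsewhere, which limits *PCLAF*.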
